A study of Mus musculus with 18 samples.

Results

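Mouse embryonic stem cells (ESC) were compared with epiblast stem cells (EpiSC) across all genes that passed a filter on low counts. The comparison took 6 of the 18 RNA-sequencing libraries of a study of the primed-to-naive transition, the 3 ESC and the 3 EpiSC libraries. The deposited table lists 25239 gene symbols, of which 21120 were detected at all and 17545 passed the filter. ESC carry the cell type label mESC, and EpiSC, the cells of day 0 of the transition, carry the label of a primed stem cell. Both came from a source given as mouse embryo, and the labels name no strain, line, passage, feeder layer or growth medium for either. The study's other groups, 3 libraries each, were cells at days 3, 5 and 8 of the transition and the naive cells at its end, called rES. Those 12 libraries entered the filter, the scaling and the estimate of spread, and so affect SEs, p-values and calls, but their own levels are not described. Whether the 3 libraries of a group came from separate cultures is not stated. P-values therefore reflect only the spread within groups over all 18 libraries, which may be technical.

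Naive and primed cells are the 2 classical states of pluripotency in the mouse. Naive ESC resemble the epiblast of the blastocyst before implantation, are maintained by LIF signalling through STAT3 and by a network of transcription factors around Nanog, Klf4, Esrrb and Tfcp2l1, and use both glycolysis and mitochondrial respiration. Primed EpiSC resemble the epiblast after implantation, depend on FGF and Activin or Nodal signalling, express factors such as Otx2 and Fgf5, methylate their genome through Dnmt3a and Dnmt3b, and are strongly glycolytic. Both states depend on Pou5f1 (OCT4) and Sox2.

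Library totals were 59041618 to 70833096 counts in ESC and 61901431 to 65751549 in EpiSC, with 16455 ± 42 symbols counted in ESC and 15993 ± 266 in EpiSC (SD, n = 3 each). Counts over gene lists refer to members that passed the filter. Correlations of log values were at least 0.995 within a group and 0.874 to 0.877 between the groups. Levels are given as CPM, counts relative to the library total, after TMM scaling, and a floor of 12 counts in a library corresponded to 0.189 CPM in ESC, against 0.19 CPM in EpiSC. A gene is said to have risen or fallen where its adjusted p in edgeR's quasi-likelihood test was below 0.05. Log2 differences are ESC minus EpiSC with an SE, which is the absolute difference divided by the square root of that test's F statistic. It is derived from the test and is not the standard error of a fitted coefficient. Residual ribosomal RNA, counted under Rn45s, stood at 2448, 2393 and 2724 CPM in ESC, against 2178, 2980 and 1363 CPM in EpiSC, with overlapping groups. The Y-linked genes Ddx3y and Uty averaged 113 ± 5.62 and 42.8 ± 3.53 CPM in ESC, against 108 ± 3.28 and 41.3 ± 0.318 CPM in EpiSC, and were not called (SD, n = 3 each). Xist, the RNA of the inactive X chromosome, averaged 1.46 ± 0.906 CPM in ESC, against 0.396 ± 0.124 CPM in EpiSC. Strain, line and medium cannot be told apart from the state of pluripotency.

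The difference between the states reached most of the transcriptome. Of the 17545 genes tested, 11802 (67.3%) were called, 5472 (31.2%) higher and 6330 (36.1%) lower in ESC. Each count of list members called is to be read against these shares. A gene without a count in a group passed the filter only through other libraries and could not be called higher in that group. A difference of at least 2-fold was called for 3297 genes (18.8%) higher and for 3565 (20.3%) lower in ESC, and 2816 called genes, 23.9% of those called, differed by less than 1.5-fold. The 3 ESC libraries lay wholly above the 3 EpiSC libraries for 5777 genes (32.9%) and wholly below for 6882 (39.2%), 72.2% of all genes together. Of the genes called, 861 that rose had no count in any EpiSC library, while 429 genes that fell had none in any ESC library. The median log2 difference over all genes tested was -0.07, and another scaling (RLE) moved it by 0.11, so the direction of a median difference under that size depends on the scaling.

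**Figure D1:**
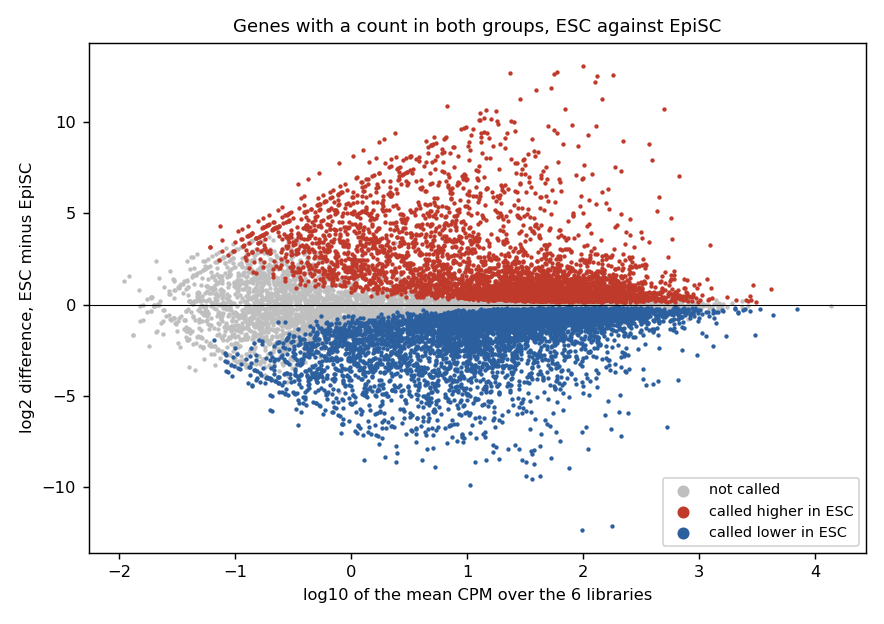
Log2 difference, ESC minus EpiSC, against log10 of the mean CPM over the 6 libraries for the 15451 genes tested with a count in both groups; the 2094 others are not drawn. Red points are genes called higher in ESC, blue points genes called lower and grey points genes not called. Called genes lie on both sides across the range of levels, with Tfcp2l1 at 7.03 and Slc16a3 at -7.22 among the large differences.

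The 12 largest gains by fitted log2 difference were all in genes without a count in EpiSC, and that order depends on how zero counts are fitted. Among them was Zfp42 (Rex1), a zinc-finger protein used as a marker of naive cells, on chromosome 8 (43295063 to 43306980, minus strand, GRCm38, GENCODE annotation). It had 316, 323 and 316 CPM in ESC and no count in EpiSC, at least 1676-fold higher in ESC. Rbmxl2, a testis RNA-binding protein, had 117, 122 and 109.5 CPM in ESC and no count in EpiSC, at least 613-fold higher. Nr0b1 (DAX1), an orphan nuclear receptor of naive cells, had 98.3, 114 and 120.0 CPM in ESC and likewise no count in EpiSC, at least 582-fold higher. The rest were Dmgdh and Bhmt of betaine breakdown, the germ-cell factors Sohlh2 and Stra8, the maternal-effect gene Ooep, the peptide transporter Slc15a1, and Lipo3, Triml1 and Triml2, at least 186-fold to 565-fold higher in ESC.

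In the other direction Klhl4, a kelch-like protein on chromosome X (114474333 to 114560829), had no count in ESC, against 299, 279.7 and 284 CPM in EpiSC, at least 1524-fold lower in ESC. Enpp2 (autotaxin), the secreted enzyme that makes lysophosphatidic acid, had no count in ESC, against 57.7, 54.1 and 46.6 CPM in EpiSC, at least 280-fold lower. Slc39a8, a zinc and manganese importer, had 0.117, 0 and 0.113 CPM in ESC, below the floor, and 356, 364 and 334 CPM in EpiSC. Fndc3c1 had 0, 0 and 0.0989 CPM in ESC, against 205, 194 and 187 CPM in EpiSC. Among the rest were Car14, a carbonic anhydrase, at 0.0938 ± 0.0986 CPM in ESC, against 72.3 ± 2.94 CPM in EpiSC, Calcr, the calcitonin receptor, at 0.127 ± 0.0355 CPM in ESC, against 84.0 ± 7.45 CPM in EpiSC, and Pkdcc, a secreted kinase, at 0.318 ± 0.368 CPM in ESC, against 151 ± 12.7 CPM in EpiSC (SD, n = 3 each). Npcd had no count in ESC, against 24, 13.4 and 4.03 CPM in EpiSC, a wide spread between the EpiSC libraries. Jakmip2 and Cysltr1, a leukotriene receptor, also had no count in ESC, and Csn3, a casein, completed the 12 largest losses with Fgf5.

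By difference of mean CPM, the gains with the most RNA were the chaperones Hsp90aa1, at 5364 ± 413 CPM in ESC, against 3006 ± 246 CPM in EpiSC, and Hspa8, at 3933 ± 47.5 CPM in ESC, against 1845 ± 144 CPM in EpiSC (SD, n = 3 each). They were followed by Fn1 (fibronectin), Tfcp2l1 and Nanog. The metal-binding metallothioneins Mt1 and Mt2 rose together: Mt1 had 858, 848 and 812 CPM in ESC, against 20.6, 26.6 and 23.3 CPM in EpiSC, and Mt2 had 918, 926 and 821 CPM in ESC, against 11.9, 15.9 and 17.6 CPM in EpiSC. Ckb, brain-type creatine kinase, stood at 1073 ± 24.5 CPM in ESC, against 87.9 ± 4.43 CPM in EpiSC, a log2 difference of 3.61 ± 0.07. Of the 12 largest losses by CPM, 5 encoded glycolytic enzymes (Pkm, Ldha, Pgk1, Eno1 and Aldoa). The others included Dnmt3b, Tuba1a, a tubulin, at 811 ± 10.6 CPM in ESC, against 2613 ± 100 CPM in EpiSC, Flna, an actin cross-linker, at 536 ± 20.1 CPM in ESC, against 1570 ± 217 CPM in EpiSC, and Pim2, a survival kinase, at 9.96 ± 0.732 CPM in ESC, against 1039 ± 98.8 CPM in EpiSC. Hsp90ab1, the sister of Hsp90aa1, moved against it, at 6351 ± 175 CPM in ESC, against 7475 ± 205 CPM in EpiSC, a log2 difference of -0.24 ± 0.06 (adjusted p 0.00176), a call that was lost under RLE scaling.

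**Figure D2:**
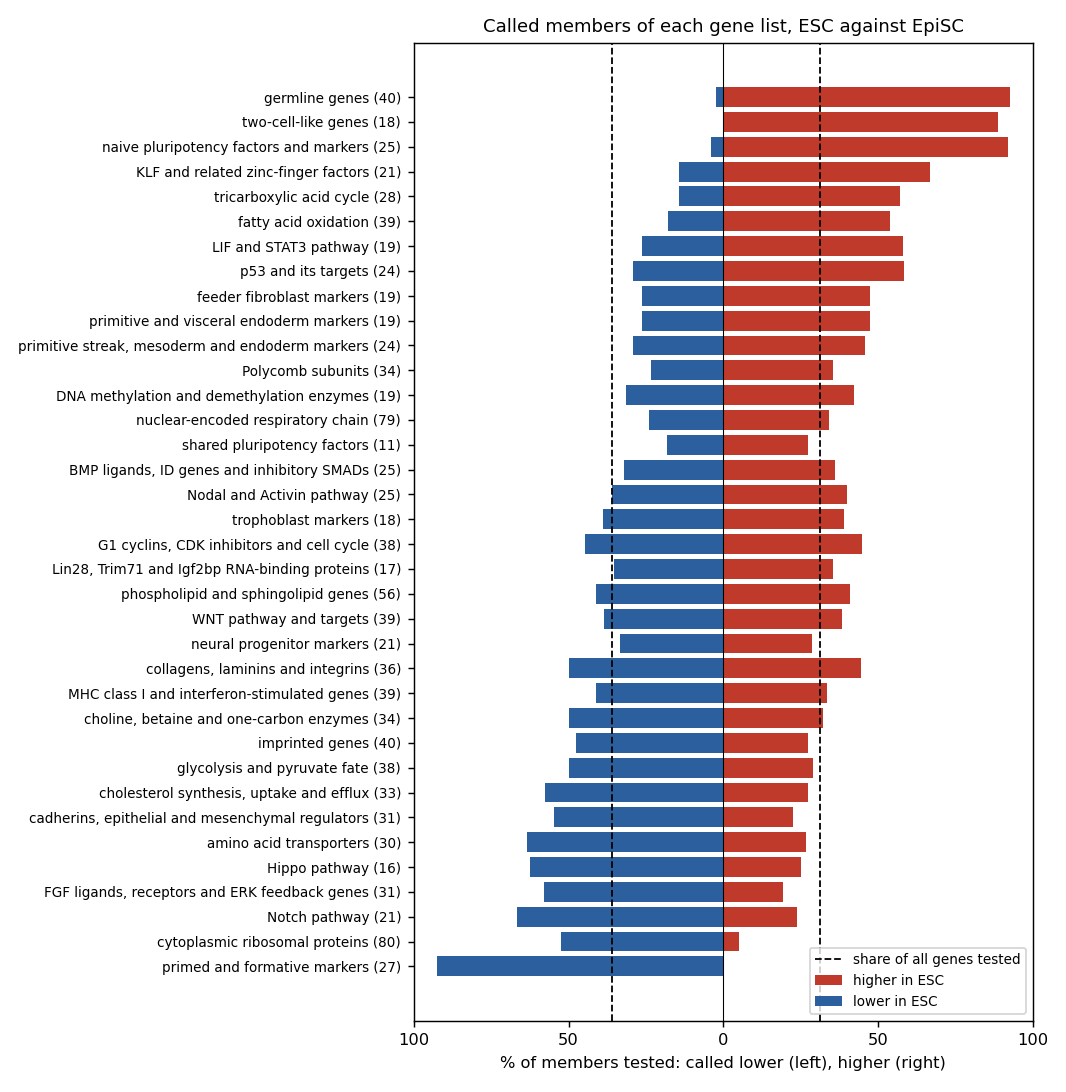
Share of the tested members of each of 36 gene lists called higher (red, right) and called lower (blue, left) in ESC against EpiSC, in percent of the members tested, whose number stands in parentheses; dashed lines mark the shares over all genes tested, 31.2% higher and 36.1% lower. Germline genes (37 of 40 higher), 2-cell-like genes (16 of 18 higher) and naive factors (23 of 25 higher) stand at the top and primed markers (25 of 27 lower) at the bottom.

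The 7 genes taken to define naive cells (Zfp42, Esrrb, Klf4, Tfcp2l1, Dppa3, Nr0b1 and Tbx3) all rose in the ESC libraries, and the 7 taken to define primed cells (Fgf5, Otx2, Pou3f1, Dnmt3b, Sox3, Zic2 and Foxd3) all fell, so the data did not go against either label. The lists that hold these genes were chosen with earlier results of these data known, so the labels were not checked independently. Of 25 naive factors and markers, 23 rose in ESC, 1 fell and 1 was not called, against 31.2% higher and 36.1% lower over all genes. Their median log2 difference was 7.30, or 7.15 with the 4 genes without a count in EpiSC set to their lower bound, beside -0.07 for all genes. In bulk RNA, fewer cells that express a gene and less of its RNA per cell cannot be told apart.

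Tfcp2l1, a transcription factor of the LIF-responsive naive network, had 1288, 1255 and 1422 CPM in ESC, against 11.3, 8.65 and 10.4 CPM in EpiSC, a log2 difference of 7.03 ± 0.20 (adjusted p 3.15e-15). Esrrb, an orphan nuclear receptor of the same network, had 761, 813 and 771 CPM in ESC, against 3.56, 2.0 and 4.20 CPM in EpiSC, a difference of 7.91 ± 0.34 (adjusted p 5.26e-13). For Nanog the values were 1113, 1090 and 1140 CPM in ESC, against 41.7, 47.1 and 33.8 CPM in EpiSC, a difference of 4.77 ± 0.18 (adjusted p 1.03e-13). The groups did not overlap for any of these, and Nanog kept a level in EpiSC well above the floor. Tbx3, a T-box factor, had 251, 251 and 254 CPM in ESC but 0, 0 and 0.156 CPM in EpiSC, and Prdm14, which restrains FGF signalling and DNA methylation in naive cells, had 49.1, 53.2 and 51.8 CPM in ESC, against 0, 0 and 0.202 CPM in EpiSC. Nr5a2, a nuclear receptor that binds the Pou5f1 gene, averaged 100.3 ± 2.29 CPM in ESC, against 0.111 ± 0.0419 CPM in EpiSC, below the floor (SD, n = 3 each). Spic and Tcl1 had no count in EpiSC and were at least 142-fold and 174-fold higher in ESC. Dppa5a, an RNA-binding protein of early germ and stem cells, had 983, 1012 and 1011 CPM in ESC, against 0.273, 0.555 and 0.919 CPM in EpiSC, a difference of 10.74 ± 0.37 (adjusted p 2.97e-14).

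The naive member that went the other way was Gbx2, a homeobox factor and STAT3 target, with 28.9, 31.9 and 28.6 CPM in ESC, against 47.4, 41.3 and 54.1 CPM in EpiSC. Its difference of -0.68 ± 0.25 had an adjusted p of 0.026 and was no longer called under RLE scaling, with DESeq2 or without some single libraries. Sall4, a zinc-finger factor of both states, was not called, at 236 ± 4.95 CPM in ESC, against 192 ± 7.38 CPM in EpiSC (adjusted p 0.109; SD, n = 3 each).

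Of 11 factors shared by both states, 3 rose (Dppa2, Dppa4 and Trim28), 2 fell (Utf1 and Foxd3) and 6 were not called. Pou5f1 had 327, 328 and 332 CPM in ESC, against 335, 266 and 392 CPM in EpiSC, a difference of -0.01 ± 0.35. The ESC values lay inside the EpiSC range, and the 3 EpiSC libraries spread far more. Sox2 had 300.5, 291 and 246 CPM in ESC, against 171, 175 and 220.4 CPM in EpiSC. All ESC libraries were above all EpiSC libraries, and the difference of 0.57 ± 0.27 missed the threshold in the fit over all 18 libraries (adjusted p 0.0697) but passed it when the 6 libraries were fitted alone (adjusted p 0.000207) and under RLE scaling (adjusted p 0.0298). L1td1, an RNA-binding protein, and Zscan10, a zinc-finger factor, averaged 443 ± 17.3 and 94.8 ± 4.0 CPM in ESC, against 478 ± 21.7 and 108 ± 4.08 CPM in EpiSC. Dppa2 and Dppa4, paired chromatin proteins that act together on early embryonic genes, stood apart from the other shared factors. Dppa2 had 133, 134 and 138 CPM in ESC, against 0.257, 0.222 and 0.405 CPM in EpiSC, and Dppa4 had 49.2, 56.6 and 53.2 CPM in ESC, against 0.755, 0.776 and 0.685 CPM in EpiSC. Utf1, a chromatin-bound factor, had 53.3, 54.8 and 52.7 CPM in ESC, against 579, 603 and 635 CPM in EpiSC, a difference of -3.50 ± 0.19 (adjusted p 1.38e-11). Under RLE scaling, with DESeq2 and in the 6 libraries alone, 6 in place of 3 shared factors were called higher.

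**Figure D3:**
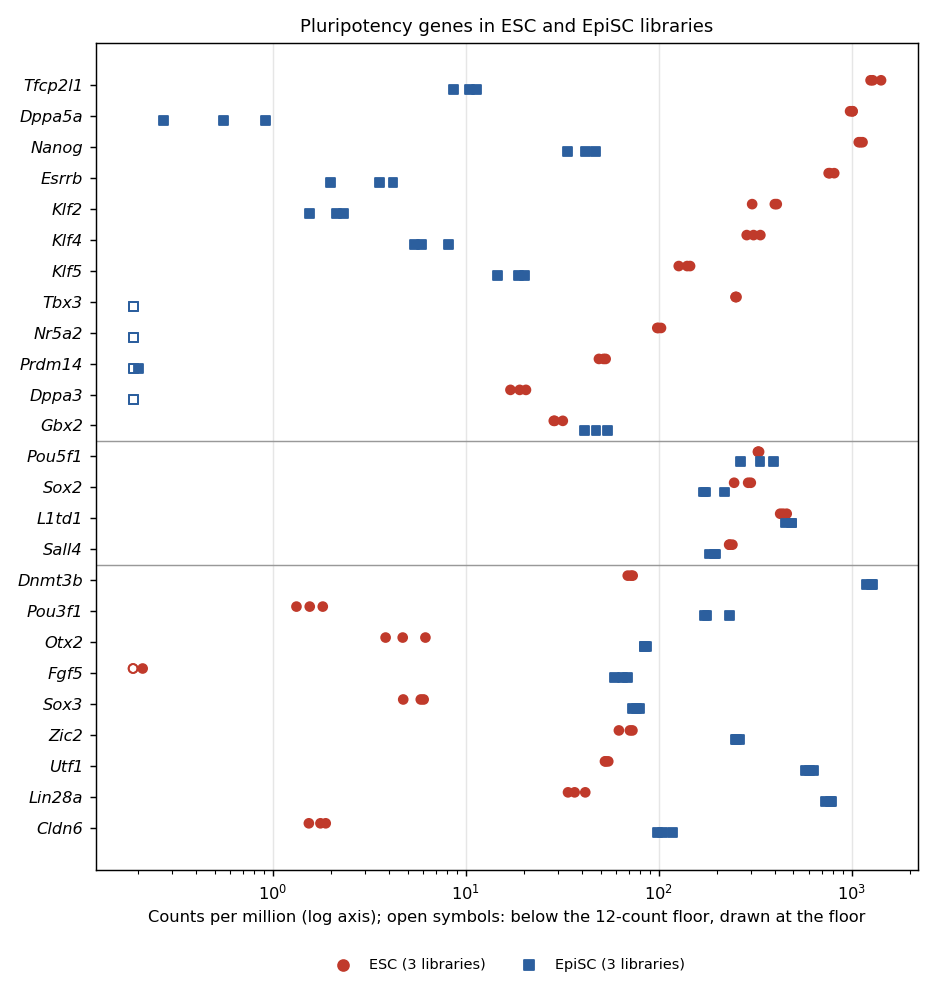
CPM (log axis) of naive, shared and primed pluripotency genes in the 3 ESC libraries (red circles) and the 3 EpiSC libraries (blue squares), 1 gene a row; open symbols are values below the 12-count floor, drawn at the floor. Naive genes from Tfcp2l1 to Dppa3 stand far to the right in ESC, with Klf5 at 138 in ESC and 17.8 CPM in EpiSC, Gbx2 stands lower in ESC, Pou5f1 overlaps at means of 329 in ESC and 331 CPM in EpiSC, and all primed genes are lower in ESC.

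None of 27 primed and formative markers was called higher in ESC, 25 were lower and 2 were not called, with a median log2 difference of -3.57. Fgf5, the growth factor that defines the post-implantation epiblast, had 0, 0.0491 and 0.212 CPM in ESC, against 58.8, 68.9 and 65.0 CPM in EpiSC. Pou3f1 (OCT6), a POU factor of the primed network, had 1.82, 1.56 and 1.33 CPM in ESC, against 178, 173 and 234 CPM in EpiSC, a difference of -6.96 ± 0.20 (adjusted p 4.91e-15). Otx2, which redirects OCT4 to primed enhancers, had 6.19, 3.85 and 4.72 CPM in ESC, against 84.9, 86.3 and 84.4 CPM in EpiSC, a difference of -4.12 ± 0.33 (adjusted p 3.88e-09). No ESC library reached an EpiSC library for these. The SOX factors Sox3, Sox4 and Sox11 averaged 5.55 ± 0.706, 19.8 ± 0.200 and 9.69 ± 0.618 CPM in ESC, against 76.6 ± 3.53, 240.1 ± 10.2 and 184 ± 8.47 CPM in EpiSC (SD, n = 3 each). Zic2 and Zic5, zinc-finger factors of the primed state, differed less, by -1.89 ± 0.24 and -1.64 ± 0.32, and Foxd3 by -1.13 ± 0.25. Etv5, an ETS factor that responds to FGF, was not called, at 409.5 ± 12.3 CPM in ESC, against 374 ± 12.7 CPM in EpiSC (adjusted p 0.46), although all ESC libraries were above the EpiSC libraries. Tcf15, a formative bHLH factor, was not called either (adjusted p 0.72).

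Of 21 KLF and SP zinc-finger factors, which bind GC-rich promoters and share a DNA-binding domain, 14 rose, 3 fell and 4 were not called, with a median log2 difference of 0.65, or 0.51 with Klf17 at its bound. Klf2 had 409.7, 400.4 and 305 CPM in ESC, against 1.56, 2.33 and 2.15 CPM in EpiSC, a difference of 7.53 ± 0.36 (adjusted p 2.82e-12). Klf4 had 337, 310.5 and 286 CPM in ESC, against 5.91, 5.45 and 8.13 CPM in EpiSC, a difference of 5.58 ± 0.22 (adjusted p 1.62e-13). Klf5 had 146, 141 and 127 CPM in ESC, against 18.7, 14.6 and 20.1 CPM in EpiSC, a difference of 2.95 ± 0.14 (adjusted p 2.91e-12). These 3 members of the naive network differed by unequal amounts, with the smallest difference in Klf5. Outside that trio, Klf8 rose with 112, 103 and 125 CPM in ESC, against 9.63, 7.97 and 8.30 CPM in EpiSC, and Sp5, a WNT target, rose with 40.9, 43.5 and 38.6 CPM in ESC, against 0.626, 0.222 and 0.872 CPM in EpiSC. Klf9 rose less, with a difference of 1.60 ± 0.08. Those that fell were Klf6, Klf7 and Klf13, by 0.61, 1.18 and 1.12 on the log2 scale.

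Of 40 germline genes, 37 rose in ESC, 1 fell and 2 were not called, against 31.2% higher over all genes. Their median log2 difference was 6.78, or 4.45 with the 9 genes without a count in EpiSC at their bound. Those 9 passed the filter only through libraries other than EpiSC and could not be called lower. Summed over the list, the level was 1460 to 1550 CPM in ESC, against 26.7 to 27.6 CPM in EpiSC. The list holds 2 naive markers, Zfp42 and Dppa3. Many germline genes are silenced after implantation by DNA methylation and by a Polycomb complex that reaches them through E-box motifs, CACGTG, in their promoters. Read from RefSeq promoters (GRCm38.p6), 250 bases upstream of any RefSeq start of the gene, 15 of 33 members with an entry (45.5%) held CACGTG, against 9.27% of the 13617 genes tested that have an entry. All 15 rose, as did 16 of the 18 members without the motif. The 150 bases upstream of the start are given for 4 members with the motif whose RNA was at or near 0 in EpiSC, written 5′ to 3′ on the gene's strand with each CACGTG in capitals.
Taf7l, chrX:134476491-134476640, minus strand: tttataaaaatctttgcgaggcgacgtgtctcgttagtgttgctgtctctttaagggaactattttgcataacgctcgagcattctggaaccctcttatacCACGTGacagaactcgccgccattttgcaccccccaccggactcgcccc
Fkbp6, chr5:135350045-135350194, minus strand: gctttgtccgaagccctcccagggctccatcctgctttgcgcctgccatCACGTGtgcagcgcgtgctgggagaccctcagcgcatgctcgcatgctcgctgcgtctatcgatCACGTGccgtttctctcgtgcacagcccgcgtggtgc
Stk31, chr6:49395389-49395538, plus strand: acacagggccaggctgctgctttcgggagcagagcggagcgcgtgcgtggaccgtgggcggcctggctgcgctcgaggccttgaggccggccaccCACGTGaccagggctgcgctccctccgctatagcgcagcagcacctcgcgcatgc
Hormad1, chr3:95559527-95559676, plus strand: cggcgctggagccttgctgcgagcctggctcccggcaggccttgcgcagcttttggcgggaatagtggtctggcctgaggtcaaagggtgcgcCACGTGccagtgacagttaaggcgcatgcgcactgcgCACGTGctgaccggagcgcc

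The genes behind these promoters had these values. Taf7l, a germ-cell form of a subunit of the general transcription factor TFIID, had 6.45, 5.29 and 6.33 CPM in ESC and no count in EpiSC, at least 31.7-fold higher. Fkbp6, a chaperone of the piRNA pathway, had 34.8, 36.0 and 36.5 CPM in ESC, against 0, 0 and 0.0623 CPM in EpiSC. Stk31, a testis kinase-like protein, had 45.3, 43.5 and 54.1 CPM in ESC, against 0, 0 and 0.125 CPM in EpiSC. Hormad1, which guards meiotic chromosome pairing, had 33.7, 34.5 and 40.3 CPM in ESC, against 0, 0 and 0.0934 CPM in EpiSC. EpiSC values were all below the floor, and each rise was called in edgeR's quasi-likelihood test. Dazl, an RNA-binding protein of germ cells, had more RNA, 276, 271 and 328 CPM in ESC, against 0, 0 and 0.343 CPM in EpiSC. The piRNA helicase Mov10l1 and the meiotic bridge protein Tex14 had no count in EpiSC and were at least 44.5-fold and 119.5-fold higher in ESC. Tex19.1, which restrains retrotransposons, averaged 122 ± 5.28 CPM in ESC, against 1.04 ± 0.312 CPM in EpiSC, a difference of 6.86 ± 0.17 (SD, n = 3 each). Tdrd5, a tudor protein of piRNA granules, was the member that fell, with 2.62, 1.59 and 2.88 CPM in ESC, against 9.36, 8.68 and 8.83 CPM in EpiSC. Rpl10l, an intronless testis copy of Rpl10, averaged 261 ± 2.93 CPM in ESC, against 0.0419 ± 0.0363 CPM in EpiSC. Reads of such copies and of the near-identical tubulins Tuba3a and Tuba3b may be assigned wrongly.

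Of 18 tested genes that mark cells resembling the embryo at the 2-cell stage, 16 rose and none fell. Their median log2 difference was 7.45, or 4.31 with the 10 genes without a count in EpiSC at their bound. Those 10 passed the filter only through libraries other than EpiSC and could not be called lower, so the absence of falls was partly fixed in advance. Zscan4c, Zscan4d and Zscan4f, zinc-finger proteins of telomere maintenance, averaged 13.6 ± 1.86, 14.1 ± 1.70 and 15.8 ± 1.24 CPM in ESC, while the EpiSC libraries held no count of them except 0.125 CPM of Zscan4d in 1 library. Pramel6, which lowers DNA methylation in the naive state, had 19.6, 17.4 and 17.1 CPM in ESC and no count in EpiSC, at least 95.1-fold higher. The deubiquitinase genes Usp17la and Usp17le averaged 5.55 ± 0.956 and 6.13 ± 1.03 CPM in ESC, against 0.211 ± 0.0456 and 0.406 ± 0.0543 CPM in EpiSC. Dux, the factor that opens the 2-cell programme, stood at 0.283, 0.164 and 0.155 CPM in ESC, at or near the floor, and had no count in EpiSC. The Zscan4 and Usp17l genes are near-identical copies whose reads may be split among them, so their separate values are uncertain.

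In the Nodal and Activin pathway, which acts through SMAD2 and SMAD3 and supports the primed state, 10 of 25 members rose and 9 fell, with a median log2 difference of 0.01, within the shift between scalings. Ligands and their partners were among those that rose. Nodal had 73.8, 77.4 and 71.9 CPM in ESC, against 20.6, 22.3 and 28 CPM in EpiSC, a difference of 1.65 ± 0.18 (adjusted p 3.08e-07). Gdf3, a related ligand, had 202, 203 and 203 CPM in ESC, against 1.01, 0.824 and 1.18 CPM in EpiSC, a difference of 7.65 ± 0.30 (adjusted p 1.93e-13). Tdgf1 (Cripto), the co-receptor, averaged 438 ± 21.3 CPM in ESC, against 85.8 ± 7.39 CPM in EpiSC, and Pcsk6, a convertase that matures Nodal, 206 ± 6.53 CPM in ESC, against 10.6 ± 0.823 CPM in EpiSC (SD, n = 3 each). The feedback inhibitors behaved differently: Lefty2 had 274, 328 and 366 CPM in ESC, against 2.92, 4.37 and 4.83 CPM in EpiSC, while Lefty1 overlapped, with 57.7, 65.7 and 60.8 CPM in ESC, against 48.9, 76.2 and 96.5 CPM in EpiSC (adjusted p 0.376). A receptor and nuclear effectors fell in ESC. Acvr2b had 50, 50.7 and 48.2 CPM in ESC, against 169, 164 and 193 CPM in EpiSC, a difference of -1.82 ± 0.07, Foxh1, a SMAD partner, differed by -1.48 ± 0.22, Skil, a SMAD repressor and target, by -1.49 ± 0.11, and Smad3 by -0.81 ± 0.07.

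Among 25 genes of BMP signalling, which in ESC restrains differentiation through ID proteins, 9 rose and 8 fell. These counts were near the shares over all genes tested (31.2% and 36.1%). Bmp4 and Bmp7, both ligands, averaged 3.53 ± 0.260 and 16.4 ± 0.790 CPM in ESC, against 1.09 ± 0.164 and 2.35 ± 0.247 CPM in EpiSC, and both rose (SD, n = 3 each). Bmpr1b, a receptor, had 0, 0.115 and 0.170 CPM in ESC, against 7.59, 6.51 and 7.68 CPM in EpiSC. The ID genes did not move together. Id3 had 32.5, 35.7 and 35.6 CPM in ESC, against 11.4, 10.9 and 15.3 CPM in EpiSC, a difference of 1.46 ± 0.13. Id2 had 5.70, 3.96 and 4.71 CPM in ESC, against 26.6, 29.8 and 26.3 CPM in EpiSC, a difference of -2.52 ± 0.19, and Id1 differed by -1.08 ± 0.15. Msx2, a homeobox target of BMP, rose with 8.26, 7.96 and 7.25 CPM in ESC, against 0.257, 0.238 and 0.576 CPM in EpiSC.

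FGF signalling through ERK drives exit from the naive state. Of 31 ligands, receptors and feedback genes, 6 rose and 18 fell in ESC, against 31.2% higher and 36.1% lower over all genes tested, with a median log2 difference of -1.91. Fgf4, the autocrine ligand of ESC, had 289, 304 and 308 CPM in ESC, against 46.1, 49.4 and 50.3 CPM in EpiSC, a difference of 2.63 ± 0.21 (adjusted p 3.9e-09). Several targets that ERK induces to limit itself were among those that fell. Dusp6, an ERK phosphatase, had 6.29, 8.65 and 8.05 CPM in ESC, against 515, 459 and 456 CPM in EpiSC, a difference of -5.96 ± 0.17 (adjusted p 4.55e-15). Dusp4, a second phosphatase, had 0.984, 1.13 and 0.904 CPM in ESC, against 76.2, 70.5 and 83.1 CPM in EpiSC, a difference of -6.25 ± 0.23 (adjusted p 6.83e-14). Spry4 and Spred3, inhibitors upstream of ERK, differed by -2.64 ± 0.16 and -4.39 ± 0.23, Egr1, an immediate early gene, by -3.33 ± 0.25, and Etv4, an ETS factor, by -2.08 ± 0.23. Against these, the immediate early gene Fos rose, at 9.92 ± 1.43 CPM in ESC, against 2.53 ± 0.775 CPM in EpiSC (SD, n = 3 each), as did the inhibitor Spry2, by 0.47 ± 0.12, and Etv5 was not called. Fgf15 had 0.300, 0 and 0.0565 CPM in ESC, against 17.5, 19.5 and 17.0 CPM in EpiSC, while Fgf10 rose with 13.1, 11.4 and 13.7 CPM in ESC, against 0.289, 0.349 and 0.654 CPM in EpiSC. Receptors Fgfr2 and Fgfr3 both fell, Fgfr2 to 1.68 ± 0.293 CPM in ESC, against 14.7 ± 0.854 CPM in EpiSC.

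Of 39 genes of the WNT pathway, 15 rose and 15 fell, near the shares over all genes tested (31.2% and 36.1%). Feedback genes and targets that WNT signalling induces come first. Axin2, the feedback scaffold, had 54.2, 57.9 and 55.5 CPM in ESC, against 7.51, 6.24 and 9.12 CPM in EpiSC, a difference of 2.87 ± 0.13 (adjusted p 7.86e-13). Notum, a secreted WNT deacylase, had 38.6, 43.3 and 35.7 CPM in ESC, against 0.353, 0.460 and 0.529 CPM in EpiSC, a difference of 6.44 ± 0.17 (adjusted p 1.44e-15). Cdx1, a homeobox target, had 201, 201 and 195 CPM in ESC, against 0, 0 and 0.0623 CPM in EpiSC. The ligands Wnt3 and Wnt8a fell, at 0.442 ± 0.0215 and 0.225 ± 0.0979 CPM in ESC, against 5.38 ± 0.765 and 4.01 ± 0.700 CPM in EpiSC (SD, n = 3 each). Frizzled receptors parted: Fzd5 and Fzd10 rose by 2.72 ± 0.08 and 4.95 ± 0.27, and Fzd2 and Fzd7 differed by -3.80 ± 0.10 and -2.55 ± 0.10. Lef1, a nuclear effector, had 8.66, 7.63 and 6.26 CPM in ESC, against 116, 112 and 108 CPM in EpiSC. The labels do not say whether a GSK3 inhibitor, an activator of this pathway used in naive medium, was present.

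LIF binds a receptor of Lifr and Il6st and activates STAT3. Of 19 genes of this pathway, 11 rose and 5 fell, with a median log2 difference of 1.02. Lifr had 51.9, 52.7 and 55.5 CPM in ESC, against 14.6, 11.8 and 12.8 CPM in EpiSC, Il6st averaged 114 ± 0.780 CPM in ESC, against 43.1 ± 4.29 CPM in EpiSC, and Stat3 had 132, 134 and 131 CPM in ESC, against 25.3, 26.8 and 27.4 CPM in EpiSC (SD, n = 3 each). The groups were apart for each, with Stat3 differing by 2.32 ± 0.07 (adjusted p 1.27e-14). Socs3, the feedback inhibitor, rose by 1.88 ± 0.14, and Bcl3, a target, had 83.5, 81.6 and 78.7 CPM in ESC, against 0.241, 0.0792 and 0.405 CPM in EpiSC. Those that fell included the kinase Pim1, at 125 ± 5.41 CPM in ESC, against 187 ± 22.8 CPM in EpiSC, and the feedback gene Cish, at 0.831 ± 0.297 CPM in ESC, against 3.99 ± 0.458 CPM in EpiSC.

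Of 21 Notch signalling genes, 5 rose and 14 fell in ESC, against 31.2% higher and 36.1% lower over all genes tested, with a median log2 difference of -1.97, or -1.83 with Hes5 at its bound. Lfng, the glycosyltransferase that tunes Notch, had 0.183, 0.360 and 0.636 CPM in ESC, against 33.8, 30.0 and 34.3 CPM in EpiSC, a difference of -6.34 ± 0.33 (adjusted p 9.07e-12). The ligands Jag2 and Dll1 differed by -2.78 ± 0.13 and -3.20 ± 0.38, and Nrarp, a feedback gene, by -1.83 ± 0.22. Against the majority, Rbpj, the DNA-binding effector, had 292, 293 and 298 CPM in ESC, against 136, 120.5 and 127 CPM in EpiSC, and Hes1, a target, rose by 0.98 ± 0.10. In the Hippo pathway 4 of 16 rose and 10 fell. Tead4, a DNA-binding partner of YAP, had 55.0, 52.1 and 49.0 CPM in ESC, against 3.56, 2.93 and 3.92 CPM in EpiSC, while its relative Tead2 averaged 158 ± 14.7 CPM in ESC, against 353 ± 8.15 CPM in EpiSC (SD, n = 3 each). Ccn2, a YAP target, rose with 176, 166 and 165 CPM in ESC, against 12.7, 10.4 and 13.6 CPM in EpiSC, and Amot, a scaffold that holds YAP out of the nucleus, fell to 2.15 ± 0.251 CPM in ESC, against 42.8 ± 2.81 CPM in EpiSC.

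**Figure D4:**
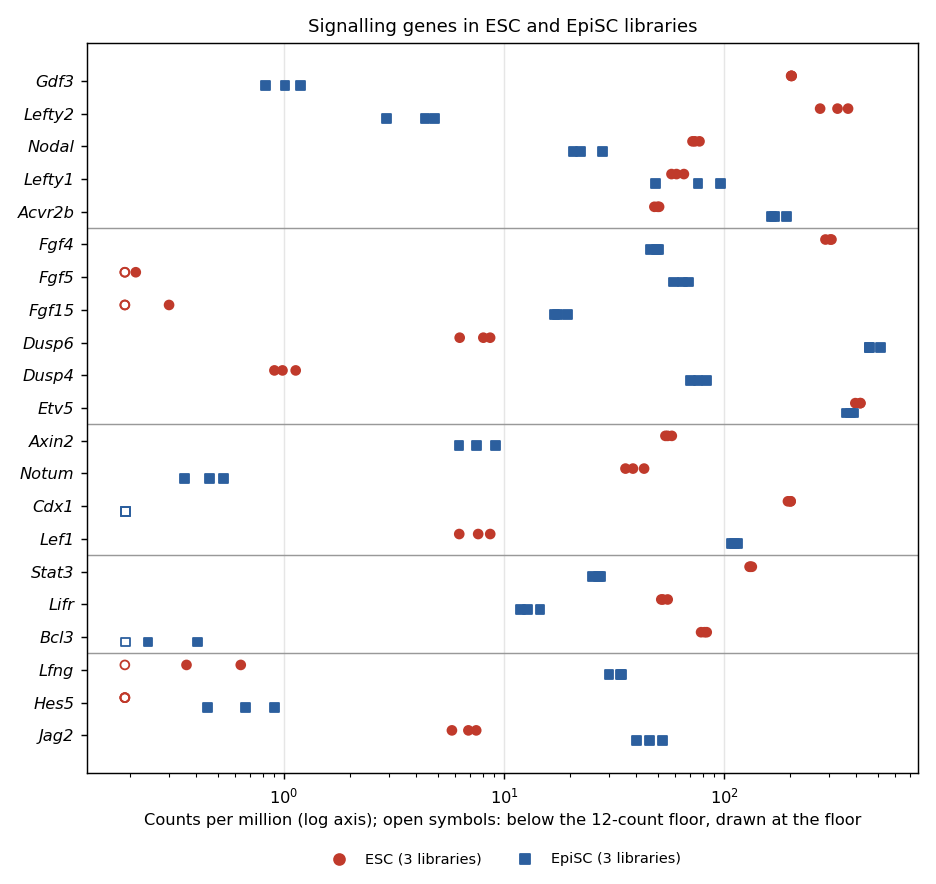
CPM (log axis) of signalling genes in the 3 ESC libraries (red circles) and the 3 EpiSC libraries (blue squares), grouped from top to bottom as Nodal, FGF, WNT, LIF and Notch genes; open symbols are values below the 12-count floor, drawn at the floor. Within the FGF group Fgf4 is to the right in ESC and Dusp6 and Dusp4 far to the left, at 7.66 and 1.01 CPM in ESC, against 477 and 76.6 CPM in EpiSC, while Etv5 and Lefty1 are the rows where the groups lie close or overlap.

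Of 31 cadherins, epithelial genes and mesenchymal regulators, 7 rose and 17 fell in ESC, with a median log2 difference of -0.72. The classical cadherins differed in opposite directions. Cdh1 (E-cadherin) had 1404, 1405 and 1296 CPM in ESC, against 617, 614 and 647 CPM in EpiSC, a difference of 1.13 ± 0.06 (adjusted p 3.19e-11). Cdh2 (N-cadherin) had 5.95, 6.81 and 7.29 CPM in ESC, against 108, 114 and 114 CPM in EpiSC, a difference of -4.07 ± 0.11 (adjusted p 1.28e-15). Epithelial genes split as well: Cldn4 rose with 95.4, 100.1 and 99.0 CPM in ESC, against 4.01, 3.53 and 8.63 CPM in EpiSC, while Cldn6 and Cldn7, claudins of the same tight junctions, averaged 1.73 ± 0.175 and 0.742 ± 0.117 CPM in ESC, against 107 ± 10.4 and 30.4 ± 0.679 CPM in EpiSC (SD, n = 3 each). Esrp1, an epithelial splicing factor, had 0.901, 0.737 and 1.40 CPM in ESC, against 97.0, 94.2 and 97.5 CPM in EpiSC, and its relative Esrp2 rose, at 9.21 ± 0.655 CPM in ESC, against 3.0 ± 0.573 CPM in EpiSC. A like pair were the grainyhead factors, with Grhl3 at 19.3 ± 0.565 CPM in ESC, against 1.38 ± 0.203 CPM in EpiSC and Grhl2 at 3.38 ± 0.678 CPM in ESC, against 27.4 ± 1.26 CPM in EpiSC. The repressors of Cdh1 also parted, Zeb1 rising by 1.16 ± 0.13 and Zeb2 differing by -5.05 ± 0.51.

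Of 36 collagens, laminins, integrins and related matrix genes, 16 rose and 18 fell, against 31.2% and 36.1% over all genes tested. Fn1, a fibronectin listed among the mesenchymal genes, had 2283, 2147 and 2311 CPM in ESC, against 212, 201 and 278 CPM in EpiSC, a difference of 3.29 ± 0.14 (adjusted p 3.98e-13). Nid1, a basement-membrane linker, had 596, 587 and 589.9 CPM in ESC, against 35.9, 35.0 and 40.4 CPM in EpiSC, a difference of 3.99 ± 0.08 (adjusted p 6.73e-17). The laminin chains Lama1, Lama3 and Lamc1 rose by 3.18 ± 0.13, 4.18 ± 0.16 and 1.37 ± 0.08, but Lamb1 fell to 32.4 ± 1.47 CPM in ESC, against 192 ± 18.5 CPM in EpiSC, as did Col4a1, at 16.8 ± 1.37 CPM in ESC, against 81.7 ± 11.6 CPM in EpiSC (SD, n = 3 each). Among integrins, receptors for this matrix, Itga5 rose by 1.77 ± 0.07 while Itga3 and Itgb1 differed by -2.27 ± 0.11 and -1.33 ± 0.07. Markers of fibroblasts, the cells of feeder layers, moved in part with the matrix genes: 9 of 19 rose and 5 fell, and their summed level was 183 to 233 CPM in ESC, against 98.7 to 131 CPM in EpiSC. Col1a1, in both lists, had 68.6, 95.8 and 73.4 CPM in ESC, against 5.31, 4.67 and 8.86 CPM in EpiSC. Lox, a collagen cross-linker, had 14.3, 17.5 and 13.6 CPM in ESC, against 0, 0 and 0.109 CPM in EpiSC, and Pdgfrb averaged 11.4 ± 0.75 CPM in ESC, against 1.19 ± 0.166 CPM in EpiSC. The fibroblast surface marker Thy1 ran the other way, at 0.805 ± 0.528 CPM in ESC, against 10.6 ± 2.12 CPM in EpiSC, and Fap and S100a4 lay below the floor in both groups. The part of fibroblast RNA in the matrix results was not tested.

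Of 38 genes of glycolysis and pyruvate use, 11 rose and 19 fell, against 31.2% and 36.1% over all genes tested. Their median log2 difference was -0.21, beside -0.07 for all genes. The summed level of the list was 8810 to 9060 CPM in ESC, against 18000 to 19700 CPM in EpiSC. That sum gives most weight to abundant members such as Pkm, Ldha, Pgk1, Eno1 and Aldoa. The motif ACGTG is the core that HIF1, the hypoxia-inducible activator of glycolytic genes, and E-box factors such as MYC recognise. It was found on either strand within 250 bases upstream of any RefSeq start in 16 of 37 members with a RefSeq promoter (43.2%), against 23.3% of 13617 genes. CACGTG contains ACGTG on both strands. Of the 16, 3 rose and 9 fell, and of the 21 without it 7 rose and 10 fell. The 150 bases upstream of the start are given for 4 members that fell in ESC and hold the motif in that stretch. Members that fell without the motif there were left out. The stretches were read from RefSeq on GRCm38.p6, 5′ to 3′ on the gene's strand. They have ACGTG and its reverse complement CACGT in capitals.
Slc16a3, chr11:120948917-120949066, plus strand: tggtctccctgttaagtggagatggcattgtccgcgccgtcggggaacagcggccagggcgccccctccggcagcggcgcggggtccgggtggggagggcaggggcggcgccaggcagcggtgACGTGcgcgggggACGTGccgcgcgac
Pgk1, chrX:106186950-106187099, plus strand: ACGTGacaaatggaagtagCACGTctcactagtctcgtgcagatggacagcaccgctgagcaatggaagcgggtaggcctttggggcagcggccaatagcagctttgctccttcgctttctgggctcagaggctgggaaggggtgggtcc
Slc2a1, chr4:119108595-119108744, plus strand: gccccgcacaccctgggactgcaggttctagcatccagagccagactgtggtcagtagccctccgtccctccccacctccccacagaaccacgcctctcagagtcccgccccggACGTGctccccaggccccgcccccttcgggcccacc
Ldha, chr7:46845654-46845803, plus strand: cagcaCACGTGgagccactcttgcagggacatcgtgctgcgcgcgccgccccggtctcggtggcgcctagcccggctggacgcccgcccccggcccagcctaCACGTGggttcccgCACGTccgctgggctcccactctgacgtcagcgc

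Slc16a3 (MCT4), which exports lactate, had 2.94, 2.98 and 2.52 CPM in ESC, against 375, 388 and 492 CPM in EpiSC, a difference of -7.22 ± 0.20 (adjusted p 3.17e-15). Pgk1, phosphoglycerate kinase, had 249, 242 and 252 CPM in ESC, against 1614, 1624 and 1825 CPM in EpiSC, a difference of -2.77 ± 0.10 (adjusted p 4.36e-14). Ldha, which turns pyruvate into lactate, had 442, 451 and 450.0 CPM in ESC, against 2071, 2184 and 2231 CPM in EpiSC, a difference of -2.27 ± 0.08 (adjusted p 7.77e-14). The groups were widely apart in all of these. Slc2a1 (GLUT1), a glucose importer, averaged 146 ± 9.29 CPM in ESC, against 762 ± 38.9 CPM in EpiSC, while Slc2a3 (GLUT3) rose, at 1644 ± 51.9 CPM in ESC, against 874 ± 83.6 CPM in EpiSC (SD, n = 3 each). Other isozymes also ran in opposite directions. Of the phosphofructokinases, Pfkl averaged 34.1 ± 1.47 CPM in ESC, against 434 ± 59.9 CPM in EpiSC, and Pfkp 208 ± 5.57 CPM in ESC, against 27.2 ± 0.788 CPM in EpiSC. Hk1, hexokinase 1, rose by 2.45 ± 0.13 and Aldoc, an aldolase, differed by -3.33 ± 0.17. Genes of pyruvate's entry into the mitochondrion and the citrate cycle were mixed. Mpc1, a subunit of the mitochondrial pyruvate carrier, rose with 17.0, 16.8 and 18.2 CPM in ESC, against 2.44, 3.85 and 3.57 CPM in EpiSC, and Pdk4, which inhibits pyruvate dehydrogenase, rose with 5.70, 4.55 and 6.57 CPM in ESC, against 0.706, 0.665 and 0.483 CPM in EpiSC. Gapdh was not called, but it has many processed pseudogenes and its reads may be assigned wrongly.

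Of 28 genes of the citrate cycle and its feeders, 16 rose and 4 fell, against 31.2% and 36.1% over all genes, with a median log2 difference of 0.27. Examples of the rises were moderate: Ogdh, oxoglutarate dehydrogenase, averaged 333 ± 5.79 CPM in ESC, against 159 ± 3.16 CPM in EpiSC, Idh1, the cytosolic isocitrate dehydrogenase, 415 ± 13.3 CPM in ESC, against 183 ± 10.6 CPM in EpiSC, and Cs, citrate synthase, 385 ± 7.79 CPM in ESC, against 283 ± 6.70 CPM in EpiSC (SD, n = 3 each). Of 79 nuclear-encoded respiratory chain genes, 27 rose, 19 fell and 33 were not called. Their median of 0.035 was smaller than the shift of 0.11 between scalings. Under RLE scaling 9 and with DESeq2 10 in place of 19 were called lower. Cox5a, a subunit of cytochrome c oxidase, rose with 297, 288 and 261 CPM in ESC, against 122, 129.5 and 133 CPM in EpiSC, and Cox7a1, a tissue-specific subunit, averaged 8.51 ± 1.25 CPM in ESC, against 1.63 ± 0.120 CPM in EpiSC. Ndufa12 of complex I fell to 14.8, 18.4 and 7.94 CPM in ESC, against 26.2, 29.0 and 27.4 CPM in EpiSC. Mitochondrially encoded genes were not analysed here.

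Fatty acid oxidation begins when carnitine palmitoyltransferase 1 loads long-chain acyl groups onto carnitine. Cpt1a, the liver-type enzyme and the gene named in the study's title, lies on chromosome 19 (3322334 to 3385733). It had 194, 194 and 189 CPM in ESC, against 1.80, 1.43 and 1.62 CPM in EpiSC, a difference of 6.89 ± 0.14 (adjusted p 8.09e-17). The other members of the family did not follow. Cpt1b, the muscle type, had 1.68, 0.426 and 0.579 CPM in ESC, against 0.0642, 0.158 and 2.26 CPM in EpiSC, with overlapping groups and a library of high value in each (adjusted p 0.939). Cpt1c, the brain type, had 12.2 CPM in each ESC library and 30.2, 33.1 and 33.3 CPM in EpiSC, a difference of -1.40 ± 0.10 (adjusted p 1.02e-09). Cpt2, which returns the acyl group to coenzyme A inside the mitochondrion, fell to 26.6, 25.9 and 26.7 CPM in ESC, against 53, 50.1 and 45.4 CPM in EpiSC, a difference of -0.91 ± 0.12 (adjusted p 4.11e-06). Slc25a20, the carrier that moves acylcarnitine across the inner membrane between Cpt1a and Cpt2, rose with 48.3, 49.8 and 53.6 CPM in ESC, against 8.43, 9.44 and 11.1 CPM in EpiSC.

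Over the whole list of 39 genes of fatty acid oxidation, 21 rose and 7 fell, with a median log2 difference of 0.66. Enzymes that rose, by less than Cpt1a, included these of the mitochondrial spiral: Acadm, the medium-chain dehydrogenase, averaged 124 ± 1.03 CPM in ESC, against 54.8 ± 2.13 CPM in EpiSC, Hadhb of the trifunctional protein 78.0 ± 3.97 CPM in ESC, against 32.3 ± 3.89 CPM in EpiSC, and Acaa2, the last thiolase, 42.6 ± 0.884 CPM in ESC, against 12.2 ± 1.56 CPM in EpiSC (SD, n = 3 each). Ehhadh, a peroxisomal enzyme, rose by 2.61 ± 0.16. Those that fell included Acadl, the long-chain dehydrogenase, with 1.94, 1.47 and 1.67 CPM in ESC, against 14.0, 13.9 and 12.8 CPM in EpiSC, and Abcd2, a peroxisomal transporter, with no count in ESC, against 5.27, 5.64 and 2.58 CPM in EpiSC, at least 23.8-fold lower.

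**Figure D5:**
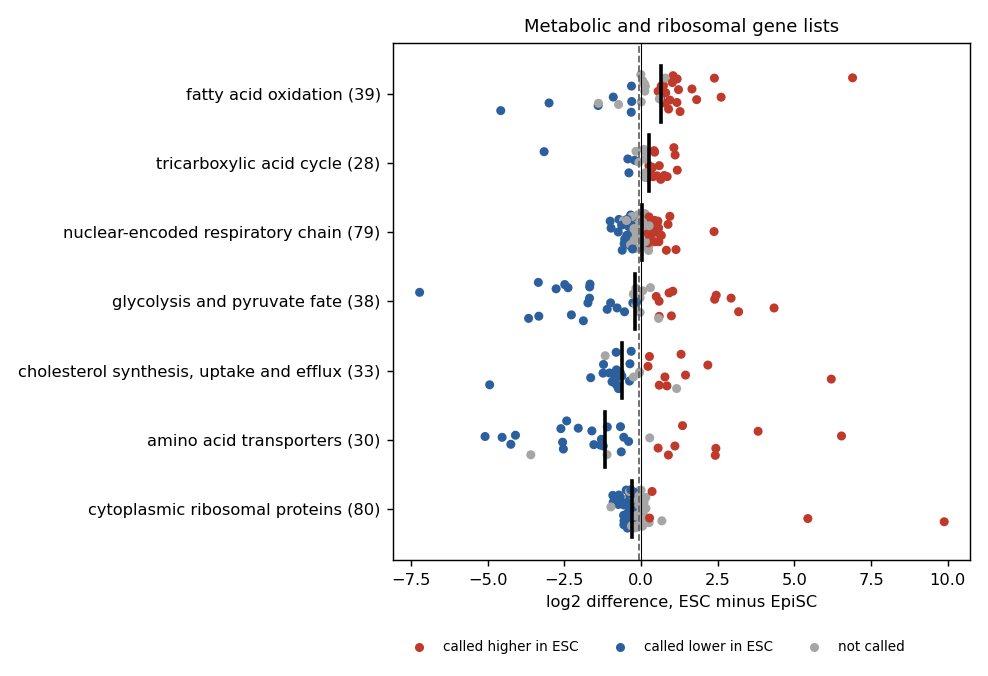
Log2 difference, ESC minus EpiSC, of every tested member of 7 metabolic and ribosomal gene lists, 1 point a gene, with genes without a count in a group at their bound; red points were called higher, blue points called lower, grey points not called, black bars are list medians and the dashed line is the median of all genes tested at -0.07. Cpt1a is the point farthest right among fatty acid oxidation genes (6.89) and Slc16a3 the point farthest left among glycolysis genes (-7.22), and most ribosomal proteins lie close to their median of -0.30.

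Choline, betaine and one-carbon enzymes, 34 in all, had 11 members that rose and 17 that fell, against 31.2% and 36.1% over all genes. The largest rises were in threonine and betaine breakdown. Tdh, threonine dehydrogenase, on which mouse ESC depend for glycine and one-carbon units, had 737, 726 and 765 CPM in ESC, against 1.36, 1.89 and 1.77 CPM in EpiSC, a difference of 8.79 ± 0.24 (adjusted p 1.56e-15). Bhmt, which methylates homocysteine from betaine, had 84.8, 90.3 and 92.3 CPM in ESC and no count in EpiSC, at least 469-fold higher, and Dmgdh, which oxidises the dimethylglycine so formed, had 106, 113 and 102.5 CPM in ESC and no count in EpiSC, at least 565-fold higher. Bhmt2 averaged 38.2 ± 0.705 CPM in ESC, against 0.0843 ± 0.0731 CPM in EpiSC (SD, n = 3 each). Phgdh and Psat1 of serine synthesis and the glycine cleavage enzyme Gldc fell: Phgdh averaged 233 ± 6.46 CPM in ESC, against 576 ± 3.29 CPM in EpiSC, Psat1 489 ± 18.6 CPM in ESC, against 951 ± 14.2 CPM in EpiSC, and Gldc 42.8 ± 1.11 CPM in ESC, against 220.5 ± 5.68 CPM in EpiSC.

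Of 30 amino acid transporters, 8 rose and 19 fell, with a median log2 difference of -1.17. Slc7a11, the cystine importer, had 8.36, 10.1 and 9.49 CPM in ESC, against 62.1, 61.0 and 47.8 CPM in EpiSC, a difference of -2.61 ± 0.18. Slc7a7 and Slc7a3, carriers of cationic amino acids, averaged 10.9 ± 1.41 and 93.4 ± 8.33 CPM in ESC, against 251 ± 4.25 and 501 ± 6.09 CPM in EpiSC (SD, n = 3 each). Slc3a2 and Slc7a5, which together form the main leucine carrier, differed by -1.29 ± 0.08 and -0.65 ± 0.09. In the other direction Slc38a4 had 378, 376 and 396 CPM in ESC, against 69.8, 77.6 and 67.4 CPM in EpiSC, and Slc1a1, a glutamate carrier, 6.24, 5.01 and 6.84 CPM in ESC, against 0.0321, 0.0475 and 0.109 CPM in EpiSC.

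Of 33 cholesterol genes, 9 rose and 19 fell, with a median log2 difference of -0.63. Those that fell included the synthesis enzymes Hmgcs1, at 424 ± 30.7 CPM in ESC, against 1001 ± 112 CPM in EpiSC, and Lss, at 97.5 ± 2.78 CPM in ESC, against 304 ± 25.6 CPM in EpiSC (SD, n = 3 each). The storage and export steps ran in opposite directions. Soat1, which esterifies cholesterol for storage, had 12.7, 14.1 and 12.3 CPM in ESC, against 404, 382 and 409.8 CPM in EpiSC, a difference of -4.94 ± 0.13 (adjusted p 1.31e-15). Abca1, which exports it, had 118, 124 and 139 CPM in ESC, against 1.85, 0.840 and 2.48 CPM in EpiSC, a difference of 6.20 ± 0.24 (adjusted p 1.2e-13). Of 56 phospholipid and sphingolipid genes, 23 rose and 23 fell, against 31.2% and 36.1% over all genes tested. Chpt1, which makes phosphatidylcholine, rose with 36.3, 34.5 and 42.5 CPM in ESC, against 9.05, 12.9 and 10.9 CPM in EpiSC, and Cers4, a ceramide synthase, fell to 10.2 ± 0.271 CPM in ESC, against 63.2 ± 2.31 CPM in EpiSC.

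Of 19 genes that write, read or remove DNA methylation, 8 rose and 6 fell, against 31.2% and 36.1% over all genes tested. The de novo methyltransferases fell in ESC. Dnmt3b had 69.2, 71.9 and 73.4 CPM in ESC, against 1196, 1263 and 1284 CPM in EpiSC, a difference of -4.12 ± 0.10 (adjusted p 4.42e-16), and Dnmt3a averaged 74.7 ± 3.21 CPM in ESC, against 213 ± 16.5 CPM in EpiSC (SD, n = 3 each). Their cofactor Dnmt3l ran the other way, with 11, 11.5 and 9.73 CPM in ESC, against 0, 0 and 0.561 CPM in EpiSC. Maintenance genes rose, Dnmt1 by 0.38 ± 0.09 and Uhrf1 by 0.91 ± 0.13. The TET dioxygenases, which oxidise methylcytosine, parted: Tet1 and Tet2 rose, Tet2 with 114, 124 and 113 CPM in ESC, against 7.40, 5.67 and 7.21 CPM in EpiSC, and Tet3 fell to 14.9 ± 0.285 CPM in ESC, against 46.7 ± 5.89 CPM in EpiSC. Of 34 Polycomb subunits, 12 rose and 8 fell, against the same shares. The core subunits of the complex that methylates histone H3 rose, with Suz12 at 527 ± 34.1 CPM in ESC, against 185 ± 10.9 CPM in EpiSC, Eed by 0.82 ± 0.09 and the enzyme Ezh2 by only 0.26 ± 0.09. Of its accessory subunits, Mtf2 and Epop rose, each by 1.76 on the log2 scale, while Phf19 fell to 3.51 ± 0.161 CPM in ESC, against 19.8 ± 1.65 CPM in EpiSC. Phc1 and E2f6, of complexes that modify histone H2A, fell by 1.30 and 1.29 on the log2 scale.

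Imprinted genes are expressed from the maternal or the paternal copy alone. Of 40, 11 rose and 19 fell, with a median log2 difference of -0.85. Plagl1 (Zac1), a zinc-finger factor, had 215, 205 and 235 CPM in ESC, against 4.27, 3.60 and 4.59 CPM in EpiSC, a difference of 5.71 ± 0.18 (adjusted p 9.83e-15). Grb10, a growth inhibitor, had 46.6, 45.2 and 45.4 CPM in ESC, against 894, 842 and 759.5 CPM in EpiSC, a difference of -4.18 ± 0.12 (adjusted p 5.39e-15). Among noncoding RNAs of the Dlk1 and Gtl2 cluster, Meg3 (Gtl2) fell to 8.24 ± 0.816 CPM in ESC, against 71.5 ± 7.61 CPM in EpiSC, Rian to 40.7 ± 8.93 CPM in ESC, against 209.5 ± 12.1 CPM in EpiSC, and Mirg to 2.08 ± 0.191 CPM in ESC, against 19.6 ± 2.82 CPM in EpiSC (SD, n = 3 each). Igf2 and H19, neighbours under opposite imprints, both fell, by 2.81 and 1.90 on the log2 scale. Paternally expressed Mest, Peg10 and Impact rose by 1.01 ± 0.12, 1.10 ± 0.13 and 1.31 ± 0.10. Transcripts of such clusters overlap, and no source states whether strand was used in the counting, so their separate values are uncertain.

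Lin28a, which blocks maturation of let-7 microRNAs, had 36.7, 33.9 and 41.7 CPM in ESC, against 731, 776 and 789 CPM in EpiSC, a difference of -4.35 ± 0.11 (adjusted p 1.05e-15). Lin28b followed, at 17.9 ± 3.21 CPM in ESC, against 168 ± 6.56 CPM in EpiSC, as did the let-7 targets Hmga2, at 31.1 ± 1.12 CPM in ESC, against 225 ± 6.77 CPM in EpiSC, and Igf2bp2, at 108 ± 5.16 CPM in ESC, against 222 ± 9.08 CPM in EpiSC (SD, n = 3 each). Trim71, another let-7 target, was not called (adjusted p 0.287). Of the 17 RNA-binding genes in this list, 6 rose and 6 fell, near the shares over all genes tested (31.2% and 36.1%). Those that rose are not named here.

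Of 38 cell cycle genes, 17 rose and 17 fell, with a median of -0.09 beside -0.07 for all genes. The D cyclins, partners of CDK4 and CDK6, differed in direction: Ccnd2 had 2.19, 3.54 and 1.99 CPM in ESC, against 51.0, 55.0 and 54.8 CPM in EpiSC, Ccnd3 had 269.9, 258 and 267 CPM in ESC, against 97.1, 92.7 and 103 CPM in EpiSC, and Ccnd1 was not called (adjusted p 0.0523). Myc had 10.7, 11.1 and 9.88 CPM in ESC, against 91.7, 98.4 and 98.7 CPM in EpiSC, a difference of -3.19 ± 0.11 (adjusted p 1.97e-14). Inhibitors of the cycle also differed in direction, with Cdkn2a at 39.0 ± 2.65 CPM in ESC, against 1.52 ± 0.140 CPM in EpiSC and Cdkn1a (p21) at 149.8 ± 3.77 CPM in ESC, against 39.7 ± 5.58 CPM in EpiSC, while Cdkn1b (p27) fell by 0.93 on the log2 scale (SD, n = 3 each). Of 24 genes of p53 and its targets, 14 rose and 7 fell. Trp53 itself rose by 0.50 ± 0.12. Its target Tigar, which diverts glucose from glycolysis, had 129.8, 129.9 and 124 CPM in ESC, against 31.6, 34.3 and 38.2 CPM in EpiSC, whereas the cell-death genes Bbc3 (PUMA) and Pmaip1 (NOXA) averaged 10.5 ± 1.82 and 11.9 ± 1.83 CPM in ESC, against 76.9 ± 15.5 and 46.1 ± 4.18 CPM in EpiSC.

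Of 80 genes of cytoplasmic ribosomal proteins, 4 rose and 42 fell, with a median log2 difference of -0.30 and a summed level of 56700 to 58700 CPM in ESC, against 66000 to 69500 CPM in EpiSC. The differences were mostly small, with Rpl11 at 384 ± 17.2 CPM in ESC, against 727 ± 129.9 CPM in EpiSC among the largest (SD, n = 3 each), and under RLE scaling 8 were called higher and 26 lower. A member that differed sharply was Rpl39l, a retrocopy of Rpl39 best known from testis, with 39.0, 34.9 and 36.1 CPM in ESC, against 0, 0 and 0.109 CPM in EpiSC. Ribosomal protein genes have many processed pseudogenes, so their counts are uncertain.

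Of 39 MHC class I and interferon-stimulated genes, 13 rose and 16 fell, near the shares over all genes tested (31.2% and 36.1%). Those that fell included H2-K1, H2-D1 and B2m of antigen presentation: H2-K1 had 7.96, 9.63 and 7.45 CPM in ESC, against 32.8, 25.1 and 41.9 CPM in EpiSC, H2-D1 averaged 2.0 ± 0.130 CPM in ESC, against 11.3 ± 1.76 CPM in EpiSC, and B2m, their common light chain, 18.7 ± 0.926 CPM in ESC, against 39.5 ± 2.41 CPM in EpiSC (SD, n = 3 each). Several antiviral genes ran the other way, among them Ifitm1, with 34.9, 37.3 and 42.4 CPM in ESC, against 0.883, 0.808 and 0.701 CPM in EpiSC, Ifitm3, with 122, 132 and 131 CPM in ESC, against 15.5, 18 and 13.9 CPM in EpiSC, and Oas1a, with 40.2, 35.7 and 39.3 CPM in ESC, against 0.257, 0.412 and 0.561 CPM in EpiSC.

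Markers of other lineages were mixed, and the genes named here do not show both directions for every list. Their counts stand beside 31.2% higher and 36.1% lower over all genes tested. Of 21 neural progenitor markers, 6 rose and 7 fell, and those that rose are not named here. Nes (nestin), which is also a primed marker, had 27.4, 26.0 and 28.9 CPM in ESC, against 328, 317 and 402 CPM in EpiSC, and Map2, of neuronal microtubules, averaged 0.632 ± 0.262 CPM in ESC, against 27.1 ± 3.49 CPM in EpiSC, while Sox1 and Pax6 were not called. Of 24 markers of primitive streak, mesoderm and endoderm, 11 rose and 7 fell. Among those that fell were Otx2 and Wnt3, given above. T (brachyury), which defines the streak, was low in both, at 1.02 ± 0.319 CPM in ESC, against 1.29 ± 0.0318 CPM in EpiSC, and Eomes, which belongs to the trophoblast list as well, rose, at 17.2 ± 1.28 CPM in ESC, against 9.89 ± 1.02 CPM in EpiSC. Gsc, an organizer homeobox gene, had 5.57, 4.75 and 5.16 CPM in ESC and no count in EpiSC, at least 27.2-fold higher. Of 19 markers of primitive and visceral endoderm, 9 rose and 5 fell, but their summed level was 299 to 317 CPM in ESC, against 403 to 444 CPM in EpiSC. Col4a1, given above among the matrix genes, was among those that fell. Hnf4a and Apob had no count in EpiSC and averaged 4.16 ± 0.801 and 2.91 ± 1.03 CPM in ESC, and Gata4 4.29 ± 0.563 CPM in ESC, against 0.0683 ± 0.0631 CPM in EpiSC, while Sox7 lay below the floor in both groups. Of 18 trophoblast markers, 7 rose and 7 fell, and those that fell are not named here. Tfap2c, a factor shared with naive cells, had 86.1, 77.0 and 85.4 CPM in ESC, against 1.78, 1.5 and 3.02 CPM in EpiSC. Cdx2, which defines the trophoblast lineage, was low, at 0.854 ± 0.364 CPM in ESC with no count in EpiSC (SD, n = 3 each).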

How the data were processed

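RNA was measured in 18 libraries, 6 groups of 3. Per the labels' protocols, ribosomal RNA was removed from total RNA by probe hybridisation and RNase H, a VAHTS kit was used, and a HiSeq X gave paired reads of 150 bases. Per the submitters' processing notes, bcl2fastq, Trim Galore, HISAT2 and the mm10 build were used. Which program and annotation gave the counts, and whether strand was used, is not given in the sources used here. The authors deposited expected counts, 1 whole number per symbol and library, not scaled between libraries. Values gather at 4 and 8, so 1 fragment may have been counted several times and counting error is larger than the counts imply. Floors cover counting error only.

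From these counts, low genes were removed with edgeR's filter, libraries were scaled by TMM, and a quasi-likelihood model was fitted over all 18 libraries (R 4.3.3, edgeR 4.0.16, limma 3.58.1). The contrast was ESC minus EpiSC, with Benjamini-Hochberg adjustment over all genes tested and a threshold of 0.05. The script was tested on simulated data. A fold against a group without a count is a bound from a floor of 12 counts per library.

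The gene lists were chosen with earlier results of these data known. The rule for naming took up to 6 called members of each list with the largest differences and at least 5 CPM. It also took called members that moved against their list's majority, and the 12 largest differences each way by log2 with at least 10 CPM and by CPM. Cpt1a, Cpt1b, Cpt1c, Cpt2, Pou5f1, Sox2, Nanog, Klf2, Klf4 and Klf5 were taken in any case. Not every gene that the rule took is named in the text. Members that moved against their list's majority are left out for some lists, among them the citrate cycle genes. Any gene named outside the rule was chosen after its values were seen. Values of a few such genes were left out and are not reported here. Alternatives were RLE scaling, no scaling, no filter, a filter of 1 CPM, both groups alone, DESeq2 1.42.0, a replicate block, counts divided by 4 and leaving out each library. Same-numbered libraries did not deviate together, with residual correlations of -0.0308, 0.00647 and -0.0277, so the numbers were not taken as pairs. Gene positions came from GENCODE and promoter sequences from RefSeq. A gene with several RefSeq starts was counted as holding a motif if any of them had it. Each printed stretch is from the first listed start with the motif. For Ldha, Slc16a3 and Slc2a1 that start lies inside the gene as placed by GENCODE.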

Additional observations from a re-analysis of the deposited data

How the results depend on the processing

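The counts over all genes stayed within 1.5 times their value under every alternative run, and no named gene with a call was called in the opposite direction in any of them. Of the 479 genes that the rule or the text named, 51 changed call or direction in some setting. Over the 36 lists, each direction counted apart, 10 counts of called members moved by more than 1.5 times in some setting: shared factors called higher (3, or 6 under RLE scaling), ribosomal proteins called higher (4, or 8) and lower (42, or 26), respiratory chain genes called lower (19, or 9), Hippo genes called lower (10, or 6 in both groups alone), naive markers called lower (1, or 0), primed markers called higher (0, or 1), and, with a filter of 1 CPM, neural (7, or 4), primitive streak (7, or 4) and trophoblast (7, or 3) markers called lower. Genes called higher numbered 6058 and lower 5678 under RLE scaling, 6143 and 5758 with DESeq2, and 5987 and 5624 in both groups fitted alone, so that 51.6% of calls were higher in place of 46.4%. Without scaling 5614 were higher and 6139 lower, without a filter 5424 and 6255, with a filter of 1 CPM 4696 and 5745, and with counts divided by 4 they were 5185 and 6200. Leaving out each library gave 5081 to 5279 higher and 5934 to 6112 lower. The replicate block, with numbers that do not pair the libraries, gave 5370 and 6214.

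Directions turned for genes that were not called. Pou5f1 went to 0.104 under RLE scaling and with DESeq2, 0.0206 without scaling, 0.123 in both groups alone and 0.0252 with the replicate block, and leaving out 1 library gave values of -0.143 to 0.13 (0.000285 without EpiSC library 1). L1td1 went to 0.00355 under RLE scaling, 0.0225 in both groups alone and 0.00357 with DESeq2. Cpt1b ranged from -0.715 without ESC library 1 (-0.436 and -0.379 without EpiSC libraries 1 and 2) to 2.98 without EpiSC library 3, where it was called. Rn45s ranged from -0.032 without EpiSC library 3 to 0.511 without EpiSC library 2, and Uty from -0.0133 without ESC library 3 to 0.107 without ESC library 2. Etv5 was called higher in both groups alone. The causes were not tested. Genes with a few counts in a library are limited by depth.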
